A study of Homo sapiens with 9 samples.

Results

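The miR-148/miR-152 and miR-26 families are seed families of mature miRNAs, that is, groups of paralogues with the same bases at positions 2 to 8, which pair with target messenger RNAs. The members were picked by name from the count table: hsa-miR-148a-3p, hsa-miR-148a-5p, hsa-miR-148b-3p and hsa-miR-152-3p for the first family, and hsa-miR-26a-5p, hsa-miR-26b-5p and hsa-miR-26b-3p for the second (written below without the species prefix). These were 7 of the 1198 listed miRNAs, and all 7 passed the filter on low counts that 367 miRNAs passed. They were measured in the established human colorectal carcinoma line HCT116 and its sublines HCT-FU-c and HCT-Oxa-c. HCT-FU-c had been selected by continuous culture in rising concentrations of 5-fluorouracil, a pyrimidine analogue that blocks thymidylate synthase, and HCT-Oxa-c in the same way under oxaliplatin, a platinum compound that crosslinks DNA. HCT116 served as the parental line for comparison. Each line gave 3 small RNA libraries, labelled as cell culture replicates 1 to 3, so that 9 libraries were compared. With 1 subline per drug, the replicates show the spread between cultures and not that between independent selections. Whether the drugs were present when RNA was taken is not given in the sources used here.

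Members of the miR-148/miR-152 family are known to target the DNA methyltransferases DNMT1 and DNMT3B, and members of the miR-26 family target EZH2, the histone H3 lysine 27 methyltransferase of Polycomb repressive complex 2. In colorectal tissue both families are usually described as growth-restraining. A miRNA hairpin yields a major arm, which is retained by Argonaute, and a minor arm, which is mostly degraded.

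Of the 7 members, 6 had a mature sequence in the RefSeq table of GRCh38.p14, as had 1059 of the 1198 listed miRNAs. The sequences are shown because the paralogues differ at few bases, which bears on how their reads are told apart. They are written 5′ to 3′ with the seed, bases 2 to 8, in capitals. The first family shares the seed of miR-148a-3p.
miR-148a-3p: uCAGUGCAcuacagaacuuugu
miR-148b-3p: uCAGUGCAucacagaacuuugu
miR-152-3p: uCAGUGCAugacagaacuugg
The second family shares the seed of miR-26a-5p, and the minor arm miR-26b-3p has a seed of its own.
miR-26a-5p: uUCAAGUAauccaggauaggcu
miR-26b-5p: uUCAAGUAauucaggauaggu
miR-26b-3p: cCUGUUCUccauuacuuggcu

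Positions are counted from 1 at the 5′ end. From miR-148a-3p to miR-148b-3p the substitutions were C9U and U10C, with 20 of 22 bases the same. From miR-148a-3p to miR-152-3p they were C9U, U10G and U20G over the 21 bases compared. From miR-26a-5p to miR-26b-5p they were C11U and C21U, with 19 of 21 bases the same. The number of mismatches allowed in alignment is not given in the sources used here, so a small exchange of reads between paralogues cannot be told apart from their own reads. Among the listed miRNAs with a sequence, no others carried either seed. miR-1297 and miR-4465, which share the miR-26 seed in the reference table, were not listed in the count table.

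The hairpin of miR-148a lies at chr7:25949919-25949986 on the minus strand of GRCh38, and GENCODE 29 places no transcript of another gene across it. MIR148B (chr12:54337216-54337314, plus strand) lies in an intron of COPZ1, and MIR152 (chr17:48037161-48037247, minus strand) in an intron of COPZ2. These hosts are paralogues that encode zeta subunits of the COPI coat. The miR-26 hairpins lie in genes of another paralogous group, the small C-terminal domain phosphatases. MIR26B (chr2:218402646-218402722, plus strand) is in an intron of CTDSP1. MIR26A1 (chr3:37969404-37969480, plus strand) is in an intron of CTDSPL, and MIR26A2 (chr12:57824609-57824692, minus strand) in an intron of CTDSP2. All 5 intronic hairpins lie on the strand of their host, and none of the hairpins has another miRNA hairpin within 10 kb. MIR26A1 and MIR26A2 give the same miR-26a-5p, so its reads cannot be assigned to a locus.

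The libraries held between 856383 counts (HCT116 replicate 3) and 2207538 counts (HCT-Oxa-c replicate 2). Levels are given as CPM, counts scaled to a common library size with TMM factors (1 CPM is 0.0001% of the scaled library), and a count of 3 or less, which is 1.34 to 4.01 CPM depending on the library, was treated as not distinguishable from 0. CPM counts PCR reads and not molecules, and adapter ligation favours some ends, so levels of different miRNAs compare reads of mature forms of 21 or 22 bases. The most abundant miRNA, miR-21-5p, took 40.0% to 57.1% of a library.

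Replicate 3 stood apart in every line. The deviations of its libraries from their line means correlated with those of replicates 1 and 2 of other lines at r between -0.68 and -0.50, and with each other at 0.74 to 0.76. Libraries numbered 1 correlated at 0.41 to 0.51 and those numbered 2 at 0.56 to 0.65, while libraries numbered 1 correlated with those numbered 2 at 0.42 to 0.61. Deviations from a line mean cancel within the line, so the negative values are not separate from the positive ones among the replicate 3 libraries. The same constraint carries part of the deviation of replicate 3 into the values for numbers 1 and 2. With this limit, the values separate replicate 3 from the rest and do not tell numbers 1 and 2 apart. For this reason results are given from the model with the line alone and, where it changes a call, from a model with the replicate number as a block. Results with replicates 1 and 2 only are given as well.

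Markers of the labelled cell type were present. All 5 miRNAs of an epithelial list, the miR-200 family, were tested. Their summed level was 19416 to 25916 CPM in the HCT116 libraries, 20038 to 24786 in HCT-FU-c and 20927 to 25259 in HCT-Oxa-c, with miR-200c-3p the most abundant by line mean. The intestinal list of miR-192-5p, miR-194-5p and miR-215-5p was low, at a summed 114 to 243 CPM over the 9 libraries.

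The erythroid marker miR-451a and the liver marker miR-122-5p were higher in replicate 3. The 5 blood miRNAs summed to 3.40, 9.29 and 126 CPM in replicates 1, 2 and 3 of HCT116. In HCT-FU-c their sums were 9.83, 7.89 and 90.6 CPM, and in HCT-Oxa-c 2.10, 3.58 and 271 CPM. In replicate 3 miR-451a was the most abundant of them, at up to 253 CPM in HCT-Oxa-c. It had at most 2 counts in replicates 1 and 2. The leukocyte miRNAs differed. miR-142-3p and miR-142-5p were not higher in replicate 3, with at most 2 counts there. They had up to 7 and 10 counts in the other libraries. By CPM miR-223-3p was highest in replicate 3 of each line, from few counts. HCT-Oxa-c replicate 3 held 13 of its counts (13.3 CPM), HCT116 replicate 3 held 4 and HCT-FU-c replicate 3 held 3. The other libraries held at most 4. miR-144-3p was counted only in replicate 3, at most 4 times a library. The hepatocyte miR-122-5p was at 60.1, 23.8 and 46.2 CPM in replicate 3 of HCT116, HCT-FU-c and HCT-Oxa-c and at no more than 3.67 CPM in the other libraries. No miRNA of these lists was called with the line alone by edgeR, while with the replicate block miR-451a was called as higher (edgeR adjusted p = 0.00903) and the intestinal miR-194-5p as lower (0.0133) between HCT-Oxa-c and HCT-FU-c, the former over the latter. The part of these RNAs in the differences between lines was not tested.

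The paralogues miR-148a-3p and miR-148b-3p carried nearly all reads of the first family, and they did not follow the same order across the lines. In replicates 1, 2 and 3, miR-148a-3p was at 4673, 4403 and 3662 CPM in HCT116. It was at 3093, 2962 and 3275 CPM in HCT-FU-c and at 5614, 6527 and 5182 CPM in HCT-Oxa-c. The highest HCT-FU-c value was thus under the lowest of HCT116, and the highest of HCT116 under the lowest of HCT-Oxa-c. The line means were 3110 ± 157, 4246 ± 523 and 5774 ± 687 CPM (SD, n = 3) in that order, and the rank of miR-148a-3p among the listed miRNAs was 36, 32 and 28. As a percentage of all counts, with no TMM scaling, the ranges were 0.299 to 0.379 in HCT-FU-c, 0.320 to 0.483 in HCT116 and 0.464 to 0.661 in HCT-Oxa-c, so that on this scale HCT116 overlapped both sublines, which did not overlap each other.

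**Figure D1:**
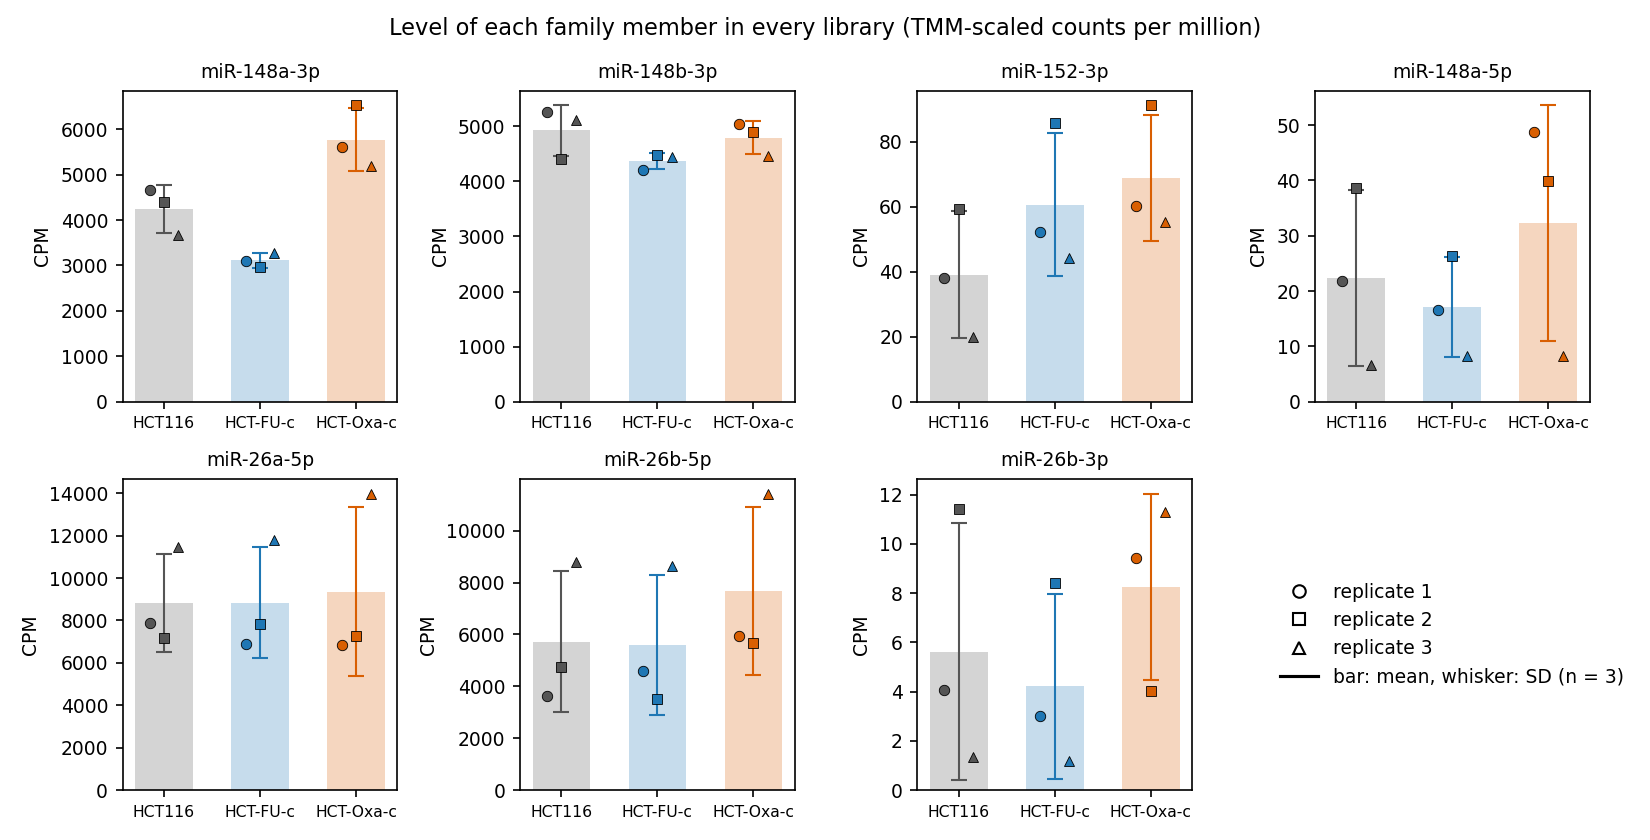
Level of each of the 7 members in CPM (vertical axes, each starting at 0) in the 3 lines. Bars are means, whiskers SD (n = 3), and the circle, square and triangle mark replicates 1, 2 and 3. Only for miR-148a-3p are the lines free of overlap in these TMM-scaled values. Of all tested miRNAs, 16.1% were without overlap in HCT-Oxa-c against HCT116, 8.72% in HCT-FU-c against HCT116 and 22.9% between the sublines. The share without overlap in all 3 comparisons was not computed. The triangles of miR-26a-5p and miR-26b-5p lie above the other libraries of their line.

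In the direct comparison of the sublines HCT-Oxa-c held more miR-148a-3p, at a log2 fold change over HCT-FU-c of 0.89 with a standard error (SE) of 0.20. The adjusted p was 0.0381 (edgeR quasi-likelihood test, Benjamini-Hochberg method). It was the only 1 of the 7 members called in this comparison, in which 16 of 367 miRNAs (4.36%) were called. Its adjusted p was 0.000120 with the replicate block and 6.14e-05 with DESeq2, and with replicates 1 and 2 only the log2 fold change was 1.08 (edgeR adjusted p = 0.000764). The call was lost with scaling by total counts (edgeR adjusted p = 0.172, log2 fold change 0.73), with no filter (0.234) and with only the 6 libraries compared (0.0623). Leaving out 1 library at a time ended it in 8 of 9 models. By edgeR the adjusted p was 0.0592 and 0.0692 without HCT116 replicates 1 and 2, and 0.185, 0.160 and 0.0641 without replicates 1, 2 and 3 of HCT-FU-c. Leaving out replicates 1, 2 and 3 of HCT-Oxa-c gave 0.120, 0.159 and 0.0631, and leaving out HCT116 replicate 3 gave 0.0463. Over all 19 alternatives the log2 fold change stayed between 0.73 and 1.08 and the adjusted p ran from 6.14e-05 to 0.234.

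**Figure D2:**
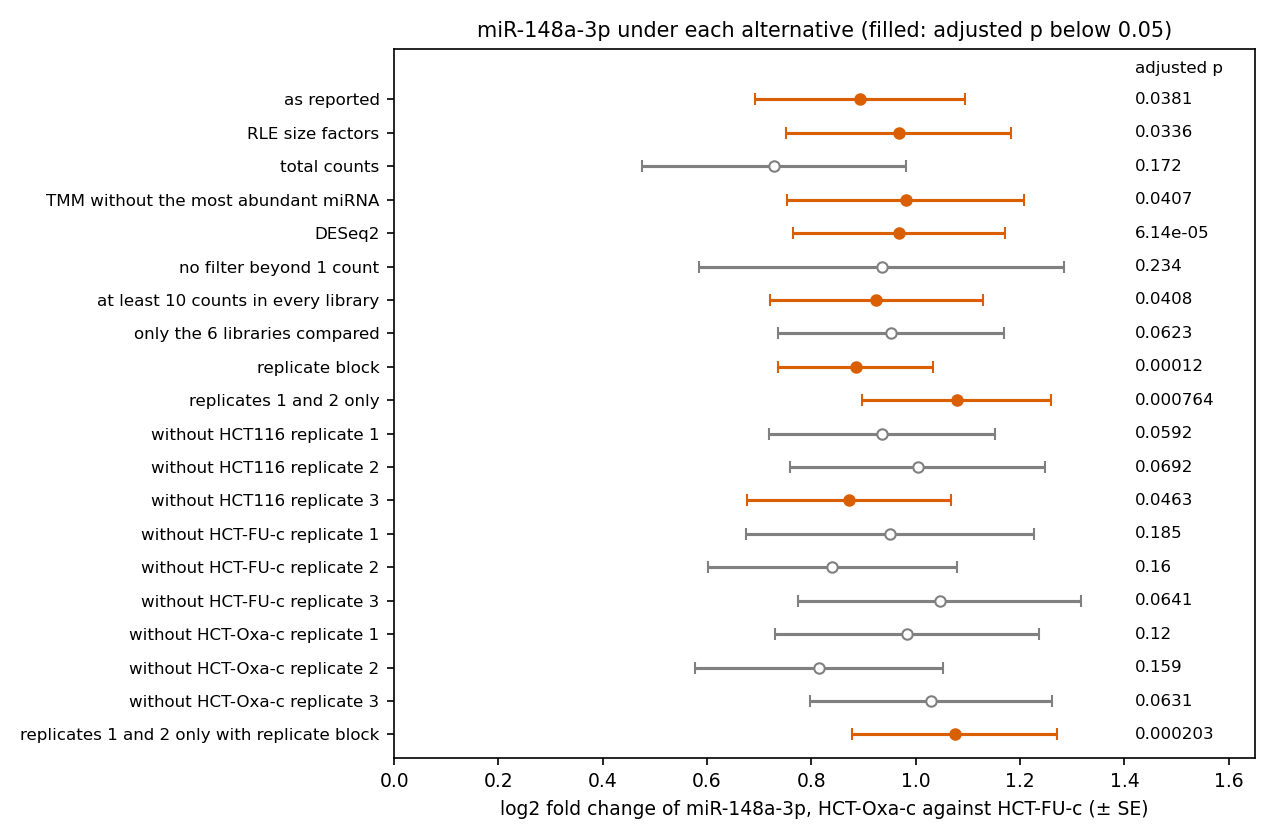
Log2 fold change of miR-148a-3p between HCT-Oxa-c and HCT-FU-c with its standard error (horizontal axis) under the reported model and each of the 19 alternatives, with the adjusted p at the right. Filled points have an adjusted p below 0.05; the values lie between 0.73 and 1.08, and leaving out 1 library ends the call in 8 of 9 models.

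Against HCT116 the same miRNA did not pass the test in either subline. For HCT-Oxa-c the estimate was 0.44 (SE 0.20, edgeR adjusted p = 0.487), with a 95% interval of -0.01 to 0.89. With the replicate block it was again 0.44 and the adjusted p 0.0447. For HCT-FU-c it came to -0.45 (SE 0.20, edgeR adjusted p = 0.913, 95% interval -0.90 to 0.00), and the adjusted p was 0.0901 with the block. These comparisons share the HCT116 libraries. With replicates 1 and 2 only and the block, a setting added once the data had been seen, the HCT-FU-c value was -0.64 (edgeR adjusted p = 0.0434). Over the alternatives the adjusted p ranged from 0.0447 to 0.938 in HCT-Oxa-c and from 0.0434 to 0.999 in HCT-FU-c.

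miR-148b-3p, which differs from miR-148a-3p only at positions 9 and 10, was at 5258, 4405 and 5115 CPM in HCT116. It was at 4208, 4472 and 4449 CPM in HCT-FU-c and at 5037, 4891 and 4465 CPM in HCT-Oxa-c. The lines overlapped in all 3 comparisons. Against HCT116 its fold change was -0.04 on the log2 scale in HCT-Oxa-c (95% interval -0.45 to 0.38) and -0.17 in HCT-FU-c (-0.59 to 0.25), and it was 0.13 between the sublines (-0.28 to 0.55). The sign of these small values depended on the scaling.

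Because both paralogues were counted in the same library, their shares of the family do not depend on scaling. miR-148a-3p held 46.9%, 49.7% and 41.6% of the summed counts of miR-148a-3p, miR-148b-3p and miR-152-3p in HCT116. In HCT-FU-c it held 42.1%, 39.4% and 42.2%, and the HCT-Oxa-c shares were 52.4%, 56.7% and 53.4%. The 95% Wilson interval of each of these shares reached at most 1.20 percentage points to either side, which covers counting error only. HCT-Oxa-c was the only line in which miR-148a-3p exceeded 50% in all 3 libraries, while miR-148b-3p held more in 5 of the 6 libraries of the other lines and the paralogues were level in HCT116 replicate 2 (6161 and 6164 counts). The mean share was 54.2 ± 2.25% (SD, n = 3) in HCT-Oxa-c, 46.1 ± 4.08% in HCT116 and 41.2 ± 1.57% in HCT-FU-c. It was 8.12 percentage points higher in HCT-Oxa-c than in HCT116 and 12.97 points higher than in HCT-FU-c, each with an exact two-sided permutation p of 0.10, the smallest that 3 libraries against 3 can give. Adjusted over the 18 tests of shares and arm ratios, both exact p-values were 0.30. Between HCT-FU-c and HCT116 the shares overlapped (difference -4.85 points, exact permutation p = 0.30), and without HCT116 replicate 2 the difference was -3.05 points.

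**Figure D3:**
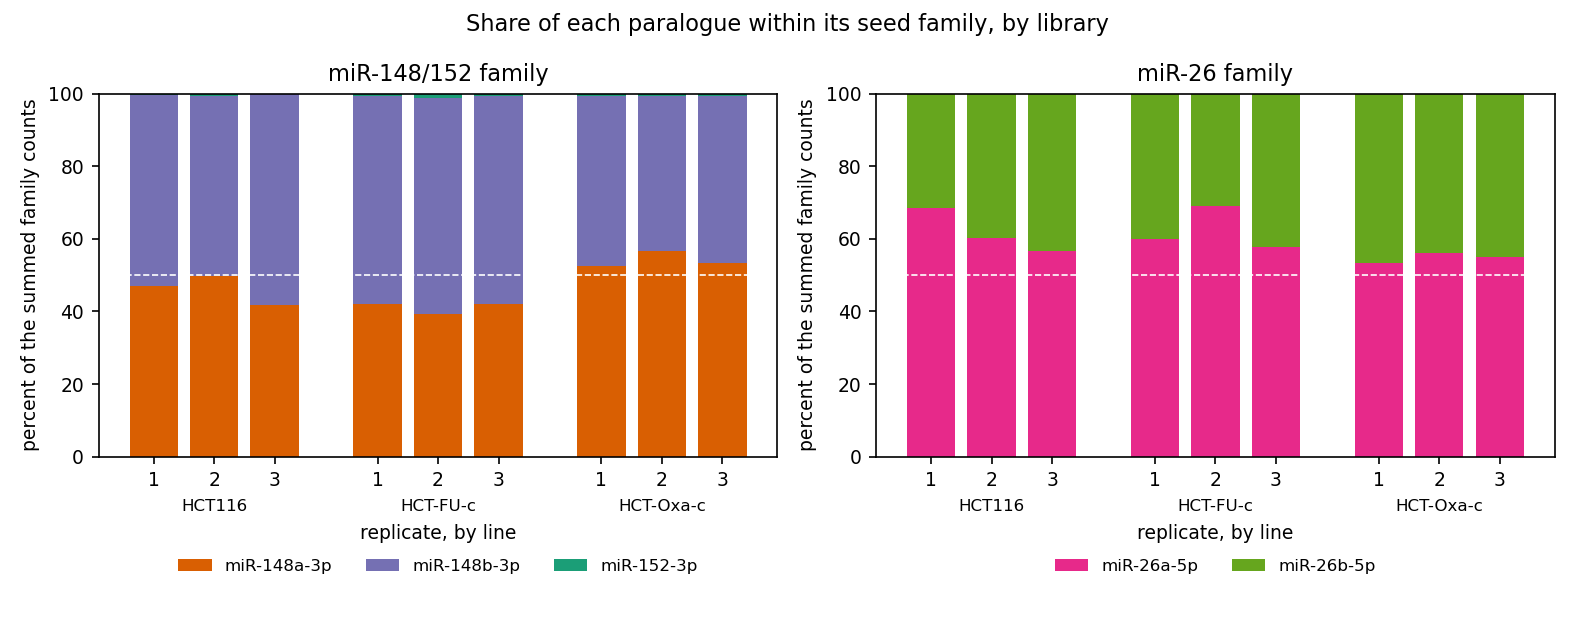
Percentage of the summed family counts held by each paralogue (vertical axis, 0 to 100) in each library, grouped by line, for the miR-148/miR-152 family (left) and the miR-26 family (right), with a dashed line at 50. miR-148a-3p holds 52.4% to 56.7% in HCT-Oxa-c and 39.4% to 49.7% in the other lines, and miR-26a-5p holds 53.5% to 56.1% in HCT-Oxa-c and 56.6% to 69.0% in the others.

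miR-152-3p, the least abundant paralogue, was at 38.0, 59.3 and 20.05 CPM in HCT116, from 56, 83 and 15 counts. It was at 52.2, 85.7 and 44.1 CPM in HCT-FU-c and at 60.3, 91.3 and 55.4 CPM in HCT-Oxa-c. The lines overlapped, although within each replicate number both sublines lay above HCT116. Its log2 fold change in HCT-Oxa-c was 0.81 (SE 0.43, edgeR adjusted p = 0.584), and with the replicate block it was 0.83 (SE 0.25, adjusted p = 0.0284). In HCT-FU-c the value was 0.62 (SE 0.43, edgeR adjusted p = 0.968), and the block did not bring it past the threshold. Over the 19 alternatives the adjusted p ranged from 0.0284 to 0.978 in HCT-Oxa-c and from 0.158 to 0.999 in HCT-FU-c. Without HCT116 replicates 2 and 3 in turn, the log2 value was 1.29 and 0.49 for HCT-Oxa-c and 0.99 and 0.33 for HCT-FU-c, and without HCT-FU-c replicate 2 the latter was 0.29. miR-152-3p made up 0.228% to 1.14% of the family, so its level had little weight in the sum.

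The summed level of the 3 major arms was 9968, 8867 and 8797 CPM in HCT116. The sum was 7354, 7519 and 7769 CPM in HCT-FU-c and 10712, 11510 and 9702 CPM in HCT-Oxa-c. HCT-FU-c lay below both other lines, and HCT-Oxa-c overlapped HCT116. The family took 0.709% to 1.17% of a library's counts, and on that unscaled measure all 3 lines overlapped.

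The minor arm miR-148a-5p was counted 32, 54 and 5 times in HCT116, 22, 50 and 7 times in HCT-FU-c and 93, 89 and 8 times in HCT-Oxa-c. In CPM these were 21.7, 38.6 and 6.68, then 16.6, 26.3 and 8.34, then 48.8, 39.8 and 8.21. Replicate 3 was the lowest library of each line, at 0.185 to 0.389 times the mean of replicates 1 and 2. The log2 fold change between the sublines was 0.90 (SE 0.73, edgeR adjusted p = 0.649), and with replicates 1 and 2 only it was 1.08 (SE 0.36, edgeR adjusted p = 0.0479; 0.0230 to 0.854 over the alternatives). Without HCT-Oxa-c replicate 1 it was 0.59 and without HCT-Oxa-c replicate 3 it was 1.40. The log2 ratio of miR-148a-5p to miR-148a-3p averaged -7.84 ± 1.07 (SD, n = 3) in HCT116, -7.61 ± 0.86 in HCT-FU-c and -7.80 ± 1.25 in HCT-Oxa-c, and its differences between lines were smaller than the spread within them (exact permutation p between 0.70 and 1.0). The minor arm of miR-148b, miR-148b-5p, had at most 92 counts and passed no test, and miR-152-5p had 1 count in all 9 libraries.

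The miR-26 family varied more between replicate numbers than between lines. miR-26a-5p, its most abundant member, was at 7880, 7162 and 11474 CPM in HCT116. It was at 6873, 7818 and 11797 CPM in HCT-FU-c and at 6838, 7269 and 13971 CPM in HCT-Oxa-c. Replicate 3 was the highest library of each line, at 1.53, 1.61 and 1.98 times the mean of replicates 1 and 2 in HCT116, HCT-FU-c and HCT-Oxa-c. The line means of 8839 ± 2311, 8829 ± 2613 and 9359 ± 4000 CPM (SD, n = 3) differed by less than this spread. Against HCT116, HCT-Oxa-c differed by a log2 value of 0.08 (95% interval -0.71 to 0.87) and HCT-FU-c by 0.00 (-0.79 to 0.79), and with replicates 1 and 2 only these were -0.07 and -0.09. Both signs depended on the library left out, and that for HCT-FU-c also on the scaling.

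miR-26b-5p was at 3619, 4743 and 8789 CPM in HCT116. It was at 4598, 3515 and 8628 CPM in HCT-FU-c and at 5954, 5682 and 11417 CPM in HCT-Oxa-c. Replicate 3 was again the highest, at 1.96 to 2.13 times the mean of the other 2 libraries of its line, and within each replicate number HCT-Oxa-c was the highest line. The sublines differed by a log2 value of 0.46 (SE 0.46, edgeR adjusted p = 0.698), and with the replicate block it was 0.48 (SE 0.15, adjusted p = 0.0251). Against HCT116 the value for HCT-Oxa-c was 0.43 (SE 0.46, edgeR adjusted p = 0.933), with 0.0577 under the block, and for HCT-FU-c it was -0.03 (adjusted p = 0.997). With replicates 1 and 2 only, the difference between the sublines was 0.59 (edgeR adjusted p = 0.0510). Over the alternatives the adjusted p ranged from 0.0251 to 0.982 between the sublines and from 0.0577 to 0.999 for HCT-Oxa-c against HCT116. Single libraries moved these estimates. Between the sublines the log2 value was 0.20 without HCT-FU-c replicate 2, 1.01 without HCT-FU-c replicate 3 and 0.12 without HCT-Oxa-c replicate 3. Against HCT116 that of HCT-Oxa-c was 0.21 and 0.85 without HCT116 replicates 1 and 3, and 0.09 without its own replicate 3.

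The shares within the miR-26 family, which do not depend on scaling, were lowest for miR-26a-5p in HCT-Oxa-c, in a test that 3 libraries a line cannot bring past 0.05. miR-26a-5p held 68.5%, 60.2% and 56.6% of the summed counts of miR-26a-5p and miR-26b-5p in HCT116. Its HCT-FU-c shares were 59.9%, 69.0% and 57.8%, and those of HCT-Oxa-c 53.5%, 56.1% and 55.0%. The HCT-Oxa-c values were the 3 lowest of the 9. The nearest libraries, HCT-Oxa-c replicate 2 and HCT116 replicate 3, had overlapping 95% Wilson intervals (55.6% to 56.7% and 55.8% to 57.4%), which cover counting error only. The mean share in HCT-Oxa-c, 54.9 ± 1.34% (SD, n = 3), differed by -6.90 points from the 61.8 ± 6.11% of HCT116 and by -7.35 points from the 62.2 ± 5.96% of HCT-FU-c. Both exact permutation p-values were 0.10, the smallest possible, and 0.30 after adjustment. The sizes rested on single libraries, with -3.52 points left without HCT116 replicate 1 and -3.97 without HCT-FU-c replicate 2. The shares of HCT-FU-c and HCT116 overlapped (exact permutation p = 0.80).

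**Figure D4:**
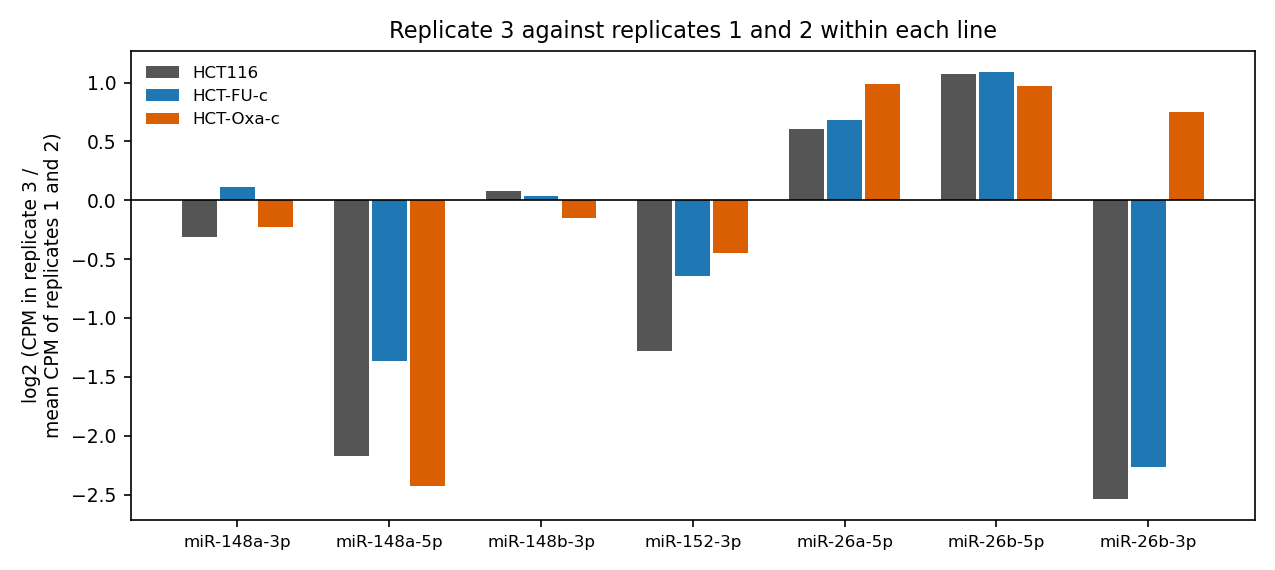
Log2 ratio of the level in replicate 3 to the mean level of replicates 1 and 2 (vertical axis) for each member, with 1 bar per line. miR-26a-5p and miR-26b-5p are higher in replicate 3 of all 3 lines (0.61 to 1.09), miR-148a-5p and miR-152-3p are lower, and miR-148b-3p lies within 0.16 of 0.

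The family sum of miR-26a-5p and miR-26b-5p was 11499, 11905 and 20264 CPM in HCT116. It was 11470, 11332 and 20425 CPM in HCT-FU-c and 12792, 12950 and 25388 CPM in HCT-Oxa-c. In replicates 1 and 2 HCT-Oxa-c thus lay above all other libraries of those numbers, and replicate 3 was 1.73 to 1.97 times as high as the mean of the others. The family took 1.18% to 2.27% of a library's counts. On that unscaled measure the order in replicates 1 and 2 did not hold. HCT-FU-c replicate 2, at 1.45%, lay above HCT-Oxa-c replicates 1 and 2, at 1.25% and 1.31%.

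The minor arm miR-26b-3p was near the limit of detection, with 6, 16 and 1 counts in HCT116. The HCT-FU-c libraries held 4, 16 and 1, and those of HCT-Oxa-c 18, 9 and 11. HCT-Oxa-c replicate 3 held 11 counts where the replicate 3 libraries of the other lines held 1 each, and no difference passed the test. The 3p arms of miR-26a, which differ between its loci, were also rare. miR-26a-2-3p had 4 to 32 counts a library, and its HCT-FU-c level relative to HCT116 was -1.03 on the log2 scale (SE 0.61, edgeR adjusted p = 0.968). miR-26a-1-3p had 46 counts over all libraries and was not tested.

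Over all members, edgeR and DESeq2 each called 0 of 7 in HCT-Oxa-c against HCT116, where edgeR called 9 of 367 tested miRNAs (2.45%) and DESeq2 called 23. The lowest unadjusted p of a member there was 0.0531 by edgeR, that of miR-148a-3p. In HCT-FU-c 0 of 7 and 0 of 367 (0%) were called by edgeR, with 15 miRNAs at an unadjusted p below 0.05 and 4 called by DESeq2 (miR-224-5p, miR-27a-5p, miR-301a-5p and miR-589-5p, named after their values were seen). With the replicate block 2 members were called in HCT-Oxa-c against HCT116, miR-148a-3p and miR-152-3p, beside 14.7% of all tested miRNAs, 0 in HCT-FU-c beside 5.45%, and 2 between the sublines, miR-148a-3p and miR-26b-5p, beside 26.4%. With replicates 1 and 2 only, the members called were 0 (11.3% of all tested), 0 (3.42%) and 2 (17.6%), the last being miR-148a-3p and miR-148a-5p. With those libraries and the block they were 0 (13.2%), 1 (7.37%) and 3 (25.3%). Groups without overlap were found for 1 of 7 members in each comparison, always miR-148a-3p, beside 16.1% of all tested miRNAs in HCT-Oxa-c against HCT116, 8.72% in HCT-FU-c against HCT116 and 22.9% between the sublines. Taken over the members, the median log2 value was 0.44 for HCT-Oxa-c, -0.17 for HCT-FU-c and 0.46 between the sublines. Over all tested miRNAs the medians were -0.01, 0.02 and -0.07. The member medians pool both families and both arms of a hairpin, and each is the value of a single member, so they describe neither family. That for HCT-Oxa-c is the value of miR-26b-3p (SE 0.84), which was near the limit of detection. Those for HCT-FU-c and between the sublines are the values of miR-148b-3p and miR-26b-5p. Scaling by total counts moved the median of all miRNAs by 0.17 in HCT-FU-c against HCT116 and by -0.18 between the sublines, and fold changes are relative to that.

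**Figure D5:**
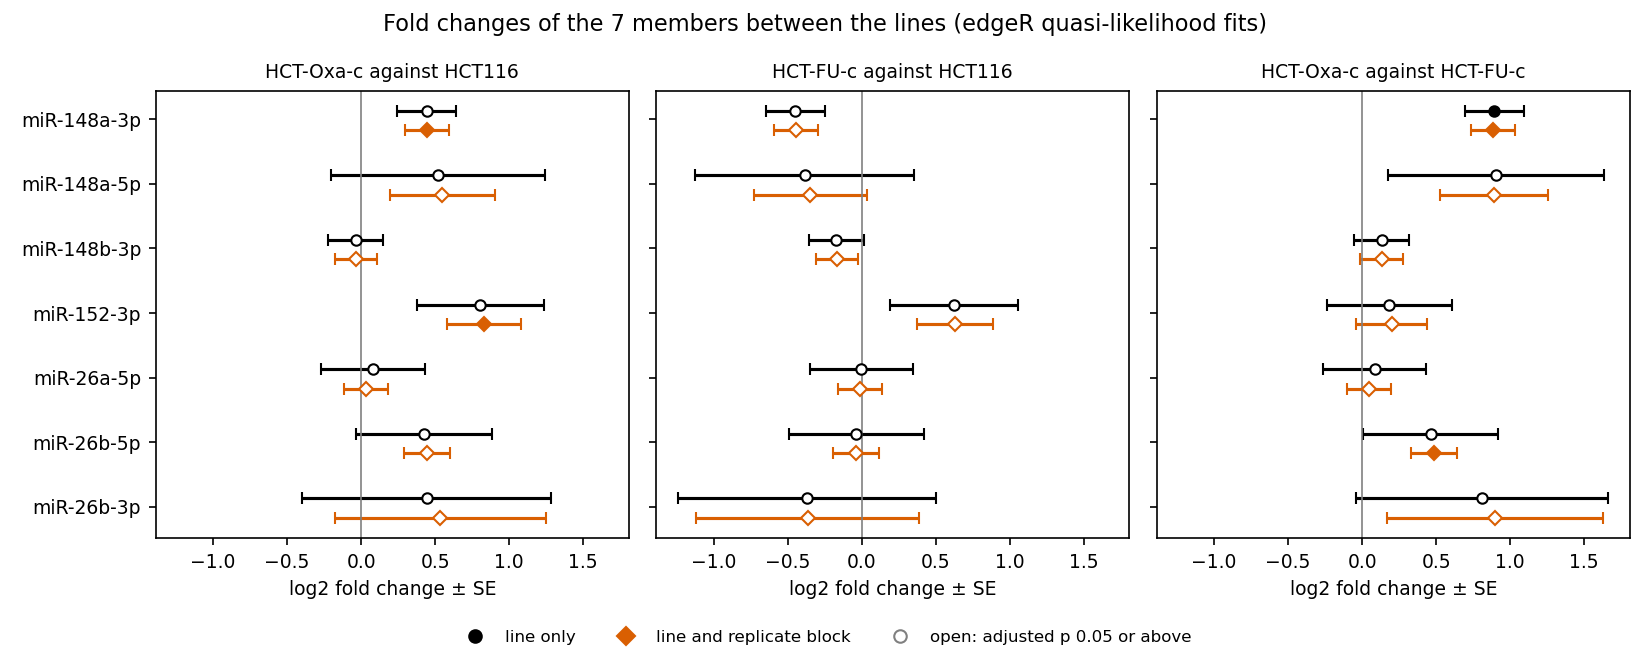
Log2 fold change with standard error (horizontal axis) of each member in the 3 comparisons, from the model with the line alone (circles) and from the model with the replicate block (diamonds). Filled symbols have an adjusted p below 0.05; in the model with the line alone this holds for miR-148a-3p between the sublines (0.89), and the block narrows the standard error of every member.

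Other miRNAs known to act on the same chromatin enzymes were read beside the families. They were miR-29a-3p, miR-29b-3p, miR-29c-3p, miR-101-3p, miR-138-5p, miR-185-5p and miR-342-3p, of which the first 3 target DNMT3A and DNMT3B and miR-101-3p targets EZH2. Of these 7, 6 were tested, and edgeR and DESeq2 called 0 in any comparison, with 0 at an unadjusted p below 0.05 by edgeR; miR-138-5p had 2 counts in all. Their median log2 value against HCT116 was 0.15 for HCT-Oxa-c and 0.20 for HCT-FU-c, and -0.05 between the sublines. miR-101-3p, which shares EZH2 with miR-26, had a mean level of 1786 ± 273 CPM (SD, n = 3) in HCT116, 2026 ± 127 in HCT-FU-c and 1805 ± 128 in HCT-Oxa-c. With the block 1 of the 6 was called between the sublines, miR-185-5p (log2 fold change -0.54, adjusted p = 0.0304 by edgeR, against 0.453 with the line alone).

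Over the 9 libraries, the log2 CPM of miR-26a-5p and miR-26b-5p correlated at r = 0.83 and that of miR-148a-3p and miR-148b-3p at r = 0.50; libraries share lines and replicate numbers, so these are descriptions. Among 226 other miRNAs with at least 10 counts in every library, miR-218-5p (r = 0.93), miR-1180-3p (0.85) and miR-15a-5p (0.82) were most like miR-148a-3p. miR-218-5p was at 63.5 ± 5.53 CPM in HCT116, 32.1 ± 8.88 in HCT-FU-c and 111 ± 31.5 in HCT-Oxa-c (SD, n = 3), and it was called between the sublines (3.48-fold, edgeR adjusted p = 0.0114). With the line alone edgeR did not call the others there (adjusted p = 0.110 for miR-1180-3p and 0.105 for miR-15a-5p). With the replicate block edgeR called both (adjusted p = 0.00403 and 0.00587), and DESeq2 also called both (0.0153 and 0.000776). Since all 3 were picked by correlation over the same libraries, these calls are not independent of that of miR-148a-3p. Most like miR-26a-5p were miR-375-3p (r = 0.97), miR-28-3p (0.94) and the erythroid miR-486-5p (0.94). None of these 3 was called in any comparison with the line alone. Their spread within a line was wide, with miR-28-3p at 402 to 1687 CPM among the HCT116 libraries. Like miR-26a-5p and miR-26b-5p, all 3 were highest in replicate 3 of every line. These correlations, and that of miR-26a-5p with miR-26b-5p, thus cannot be told apart from the shared offset of replicate 3.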

How the data were processed

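Small RNA libraries of HCT116, HCT-FU-c and HCT-Oxa-c, 3 replicates each, were prepared by the authors from total RNA and sequenced on an Illumina MiSeq. The authors deposited raw counts of reads for each mature miRNA together with a normalized signal, which is each count over a library factor. Only the counts were used here. The submitters' processing notes name CASAVA 1.8, Bowtie 1.1.2, DESeq2 and GRCh38.p7.

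Counts were tested in R 4.3.3 with edgeR 4.0.16 (TMM, filterByExpr at 10 counts and 15 in total, quasi-likelihood F test, Benjamini-Hochberg over 367 miRNAs, threshold 0.05) in 1 model of all 9 libraries. The scripts were tested on simulated data. Shares and arm ratios (log2 with 0.5 added to each count) were compared by two-sided exact permutation tests. Replicate numbers come from the labels. In a check of pairing, the deviations of same-numbered libraries from their line means correlated at 0.411 to 0.764 and those of libraries numbered 1 with 2 at 0.417 to 0.614, so the check sets replicate 3 apart and does not distinguish numbers 1 and 2. The number entered as a block in an alternative. Between replicates of a line the chi-square per degree of freedom was 11.3 to 459. Separate cultures and PCR reads, which are not independent molecules, exceed counting noise by design, so this value only describes the spread. Which libraries shared a sequencing run is not given in the sources used here. Alternatives were RLE, total counts, TMM without miR-21-5p, DESeq2 1.42.0, other filters, fewer libraries, the replicate block and each library left out.

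The named miRNAs were the members, their other arms and seed relatives, miRNAs that target DNA methyltransferases or EZH2, the 3 miRNAs most correlated with miR-148a-3p and with miR-26a-5p, and the most abundant miRNA, beside cell type marker lists. Members and lists were chosen with earlier results of these data known.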

Additional observations from a re-analysis of the deposited data

Results flagged for a closer look

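The level of miR-148a-3p against HCT116 was higher in HCT-Oxa-c and lower in HCT-FU-c, neither past the threshold with the line alone. With the replicate block HCT-Oxa-c passed it (edgeR adjusted p = 0.0447). HCT-FU-c passed it with replicates 1 and 2 only and the block (edgeR adjusted p = 0.0434), a setting added once the data had been seen. The difference between these effects is the direct comparison of the sublines, since the shared HCT116 libraries cancel. Its test with the line alone gave a log2 value of 0.89 (edgeR adjusted p = 0.0381). The call depended on the setting. It was lost in 8 of 9 models that left out 1 library, with total counts, with no filter and with only the 6 libraries compared, and the adjusted p ranged from 6.14e-05 to 0.234 over the alternatives. All 3 HCT-Oxa-c libraries lay above all 3 HCT-FU-c libraries, and 22.9% of all tested miRNAs were without overlap between these lines, in either direction.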

How the results depend on the processing

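Of 392 alternative values of the members' log2 fold changes, 336 kept their direction and side of the threshold, 38 changed sign, 7 came past the threshold and 11 fell short of it; the largest absolute value with a changed sign was 0.55. The members with the lowest counts were miR-26b-3p, miR-148a-5p and miR-152-3p (1 to 18, 5 to 93 and 15 to 204 a library). Of these, miR-26b-3p and miR-148a-5p could not be fitted with at least 10 counts in every library.

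The number of miRNAs called differed between settings. In HCT-Oxa-c against HCT116 it went from 9 to 54 with the block (35 higher, 19 lower), 23 with DESeq2, 16 with no filter, 4 with at least 10 counts in every library, 43 with replicates 1 and 2 only and 50 with both these libraries and the block, and it ranged from 4 to 12 when 1 library was left out (5 without HCT116 replicate 1, 4 without its replicate 2, 5 without HCT-Oxa-c replicate 2 and 5 without its replicate 3). In HCT-FU-c against HCT116 it went from 0 to 20 with the block, 4 with DESeq2, 1 with no filter, 1 with at least 10 counts in every library, 13 with replicates 1 and 2 only and 28 with these and the block. Between the sublines it went from 16 to 97 with the block, 43 with DESeq2, 9 with at least 10 counts, 67 with replicates 1 and 2 only and 96 with these and the block, and it ranged from 6 to 23 without 1 library (10 without HCT116 replicate 1, 6 and 6 without HCT-FU-c replicates 1 and 2, and 9, 7 and 8 without HCT-Oxa-c replicates 1, 2 and 3). The number of members called went from 0 to 2 in HCT-Oxa-c with the block and from 0 to 1 in HCT-FU-c with replicates 1 and 2 only and the block, a setting chosen after seeing the data. Between the sublines it went from 1 to 2 with the block, 2 with replicates 1 and 2 only, 3 with these and the block, and 0 with total counts, with no filter and with only the 6 libraries compared, and it ranged from 0 to 1 without 1 library. The cause was not tested.

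Signs changed for 6 of the 7 members, again with the cause not tested. For miR-148b-3p in HCT-Oxa-c against HCT116 the log2 fold change became 0.0110 with TMM without miR-21-5p, 0.0287 with no filter, 0.0227 with at least 10 counts, 0.0584 with replicates 1 and 2 only and 0.0603 with these and the block, and it ranged from -0.0552 to 0.0793 without 1 library. For miR-26a-5p there it became -0.0718 with replicates 1 and 2 only and -0.0758 with these and the block (-0.26 to 0.29 without 1 library), and for miR-26b-3p -0.20 and -0.13. In HCT-FU-c against HCT116, total counts gave 0.00363 for miR-148b-3p, 0.16 for miR-26a-5p and 0.10 for miR-26b-5p; no filter gave 0.0460 for miR-26a-5p and 0.0193 for miR-26b-5p; and at least 10 counts gave 0.0336 and 0.00917. Without 1 library the ranges were -0.84 to 0.17 for miR-148a-5p, -0.30 to 0.23 for miR-26a-5p, -0.52 to 0.42 for miR-26b-5p and -1.37 to 0.55 for miR-26b-3p. Between the sublines, total counts gave -0.0438 for miR-148b-3p, -0.0366 for miR-152-3p and -0.0844 for miR-26a-5p, and without 1 library the ranges were -0.0498 to 0.50 for miR-152-3p and -0.26 to 0.43 for miR-26a-5p.

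The differences in shares of miR-148a-3p and miR-148b-3p, and those of miR-26a-5p that involve HCT-Oxa-c, kept their sign under every alternative run, pooled counts and the replicate block included; with the block the exact sign-flip p was 0.25 for HCT-Oxa-c, the smallest 3 pairs can give. Without 1 library the share difference of miR-152-3p between the sublines ranged from -0.282 to 0.00392 points and that of miR-26a-5p in HCT-FU-c against HCT116 from -2.93 to 3.83 points. The log2 ratio of miR-148a-5p to miR-148a-3p differed by 0.0602 between the sublines with replicates 1 and 2 only, and without 1 library by -0.53 to 0.74 in HCT-Oxa-c, -0.34 to 0.73 in HCT-FU-c and -0.67 to 0.51 between the sublines. For miR-26b-3p to miR-26b-5p the values with replicates 1 and 2 only were -0.66 in HCT-Oxa-c and -0.29 between the sublines, and without 1 library the ranges were -0.69 to 1.03, -1.27 to 0.61 in HCT-FU-c and -0.32 to 1.46.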

Other observations

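Some markers of other cell types were well above the floor in every library. miR-126-3p, an endothelial marker, was at 819 ± 227 CPM (SD, n = 3) in HCT116, 781 ± 204 in HCT-FU-c and 638 ± 182 in HCT-Oxa-c. Of the neural markers, miR-9-5p was at 3284 ± 128, 3039 ± 547 and 2954 ± 175 CPM, while miR-124-3p had 3 counts in all 9 libraries. The stromal pair miR-143-3p and miR-145-5p summed to 315, 343 and 675 CPM in replicates 1, 2 and 3 of HCT116, to 177, 204 and 458 CPM in those of HCT-FU-c and to 212, 300 and 398 CPM in those of HCT-Oxa-c. In replicate 3 miR-143-3p was the highest and miR-145-5p the lowest of each line, the latter at 114, 64.4 and 86.2 CPM in HCT116, HCT-FU-c and HCT-Oxa-c. Of the muscle markers, miR-1-3p had at most 6 counts in a library and miR-133a-3p and miR-206 were not listed. None of these lists had a member called by edgeR with the line alone, and with the replicate block miR-143-3p was called lower in HCT-Oxa-c (edgeR adjusted p = 0.00172) and HCT-FU-c (0.0113) than in HCT116, while miR-145-5p was not called in either (0.987 and 0.131). The most abundant miRNA, miR-21-5p, had a log2 fold change of -0.15 in HCT-Oxa-c (95% interval -0.52 to 0.23) and -0.32 in HCT-FU-c (-0.70 to 0.06) against HCT116.

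The limits are as follows. 3 libraries a line leave the exact tests of shares unable to pass 0.05, and PCR reads without stated use of molecular identifiers make the counting intervals too narrow for all error. The sublines were compared in bulk culture, so fewer cells with a miRNA and less of it in each cell cannot be told apart. The small RNA libraries hold no measure of target messenger RNAs or proteins. The release of the miRNA annotation used for counting is not given in the sources used here.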
